A study of Mus musculus with 12 samples.

Results

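The genes described here are 8 transcripts that mark bile duct epithelium and the ductular reaction in liver: Krt7, Krt19, Epcam, Sox9, Cftr, Spp1, Cd24a and Prom1. The rule for the list names symbols and uses no measured value, although the list was drawn up with earlier results of these data known, and the symbols were matched to Ensembl gene identifiers in a table of raw counts, where they are 8 of 56205 genes. The table holds poly(A) RNA-seq counts of whole liver from 12 leptin-deficient, obese mice (ob/ob), with 1 library per mouse and 6 mice in each of 2 groups. Mice of the FLO group were fed chow. Mice of the fibrotic group received the same chow with DL ethionine, an ethyl analogue of methionine, given as 0.165% in drinking water for 2 weeks per one label field and as an injection of 0.15% per another, and the study's methods state a different duration. All mice of both groups carried the leptin mutation (B6.Cg-Lep ob/J) and were labelled male, so no lean mice enter any comparison. The group name follows the labels. Col1a1, a chain of type I collagen, was at 23.3 ± 12.4 CPM in the fibrotic and 27.1 ± 10.1 CPM in the FLO group (SD, n = 6 libraries each), and Acta2, the smooth muscle actin of activated stellate cells, was lower in the fibrotic group by edgeR's quasi-likelihood test (log2 fold change -1.15, Benjamini-Hochberg adjusted p = 0.00446), a call lost without fibrotic replicate 3, 4 or 6 or FLO replicate 3 or 6.

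Cholangiocytes are the epithelial cells that line the bile ducts. They are a small minority of liver cells, and hepatocytes, which make up most of the tissue, share their embryonic origin. In many liver injuries, strings and small ducts of biliary-type cells appear at the edge of the portal tracts, a response called the ductular reaction, and Sox9, Spp1, Cd24a and Prom1 are used to mark its less mature cells. Notch and Yap signalling are known to favour biliary fate in liver cells. In a bulk library the number of such cells and the RNA per cell cannot be told apart, and a gene can also be made by other cells of the tissue.

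Total counts per library ranged from 17815568 to 24814263. Levels are given as CPM, counts relative to the library size after TMM scaling (trimmed mean of M values). FLO replicate 3 went against its label: it held 3773 counts of Xist and 4 of Ddx3y, while the other 11 libraries held 0 to 4 of Xist and 556 to 977 of Ddx3y, as male tissue does. It was kept in its labelled group. Results of the 8 genes are given with and without it, and those of other genes and lists only in part. A gene was called when its adjusted p was 0.01 or less and its absolute log2 fold change was above 0.5. Of the 8 genes, 7 passed the low-count filter, each with at least 10 counts in every one of the 12 libraries, and Cftr did not pass. Among all 13416 genes tested, 29.9% were called, 15.9% as higher in the fibrotic group.

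With ethionine, 5 of the 7 tested genes were called higher (Prom1, Cd24a, Epcam, Sox9 and Spp1) and 0 were called lower, beside 15.9% of all tested genes called higher and 14% called lower. Krt7 and Krt19, the biliary keratins, had log2 fold changes of 1.17 and 1.38 that did not pass the adjusted p. Fitted fold changes were 7.84 for Prom1, 3.44 for Cd24a and 2.02 to 2.61 for the other 5. The median log2 fold change of the 7 was 1.35, against 0.03 over all genes tested. The groups did not overlap for 2 of the 8 genes, Cd24a and Prom1, all fibrotic libraries being above all FLO libraries, which was also so for 15.3% of the tested genes (30.4% when both directions are counted). Without FLO replicate 3 the number called was again 5, with Krt7 in place of Spp1, beside 15.6% of all genes called higher.

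**Figure D1:**
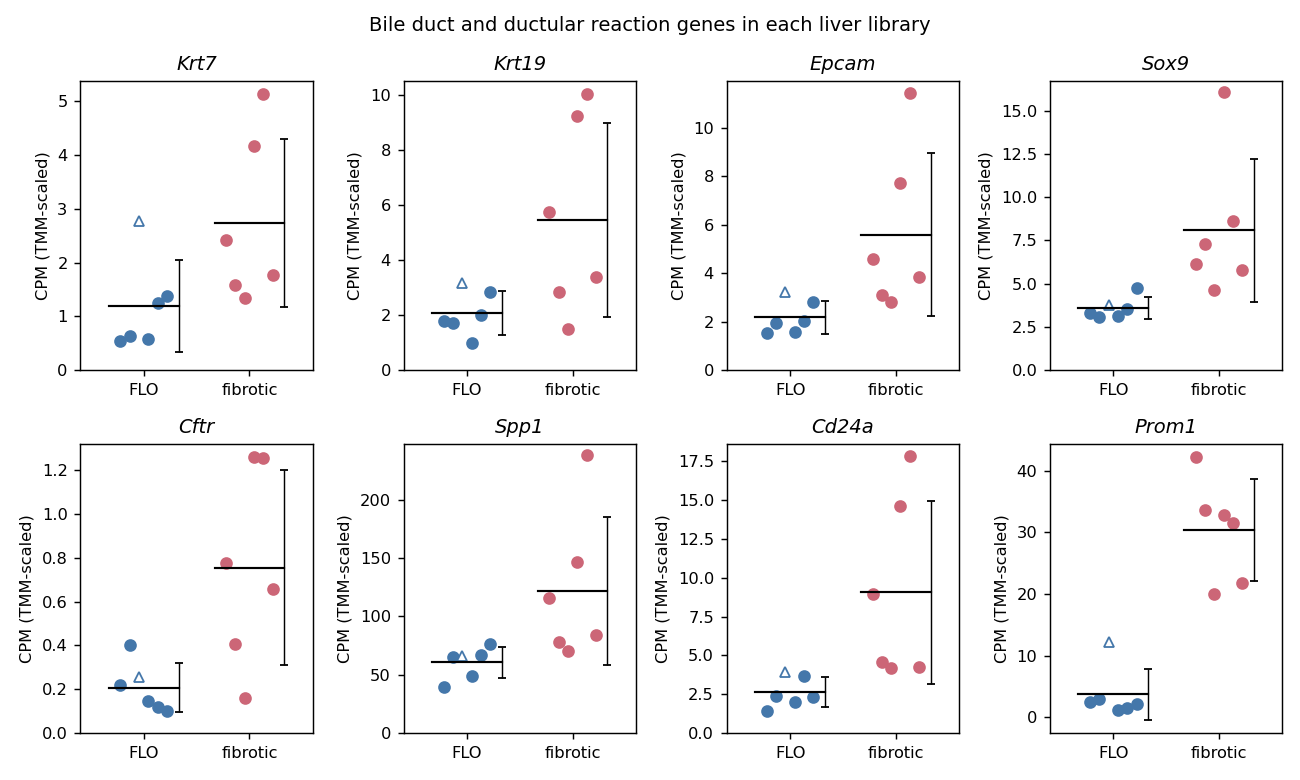
Levels of the 8 genes in each library, in CPM (y axis, linear), for the FLO and fibrotic groups (x axis). Points are libraries, the open triangle is FLO replicate 3, horizontal lines are group means and bars are SD (n = 6). Cd24a and Prom1 are the genes whose groups do not overlap. The SD in CPM is larger in the fibrotic than in the FLO group for each of the 8 genes. As a share of the mean it is smaller for Krt7 (56.8% against 71.6%) and Prom1 (27.1% against 110.4%) and larger for the other genes.

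Spp1 encodes osteopontin, a secreted matrix protein that binds integrins and CD44 and is made by biliary cells and by macrophages. It lies on chromosome 5 at 104435111-104441053 (GRCm38, ENSMUSG00000029304). In the FLO libraries it was at 39.8, 65.2, 66.1, 49.0, 66.8 and 76.1 CPM in replicates 1 to 6, and in the fibrotic libraries at 115.6, 77.6, 70.3, 146.5, 238.2 and 83.7 CPM. Fibrotic replicate 5 was highest, and only fibrotic replicate 3 lay within the FLO range. The log2 fold change was 1.01 (SE 0.28, 95% interval 0.40 to 1.63), with an edgeR adjusted p of 0.00921. This call sat close to the threshold: it was lost on leaving out fibrotic replicate 1, 4 or 5 or any one of the 6 FLO libraries, with adjusted p-values of 0.0102 to 0.0256. Without FLO replicate 3 the log2 fold change was 1.04, with an edgeR adjusted p of 0.0148.

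Prom1 encodes prominin-1 (CD133), a membrane protein of epithelial protrusions used as a marker of progenitor-like biliary cells. It lies on chromosome 5 at 43993621-44102047 (ENSMUSG00000029086). The FLO libraries held 2.52, 2.93, 12.2, 1.22, 1.54 and 2.23 CPM and the fibrotic libraries 42.2, 33.6, 20.1, 32.9, 31.6 and 21.8 CPM. All fibrotic libraries were above all FLO libraries, and FLO replicate 3, at 12.2 CPM, stood above the other 5 FLO libraries. Prom1 rose by a log2 fold change of 2.97 (SE 0.50, 95% interval 1.89 to 4.06), with an edgeR adjusted p of 0.000330. Without FLO replicate 3 the FLO mean was 2.09 ± 0.700 CPM (SD, n = 5) instead of 3.77 ± 4.16 CPM (n = 6), and the log2 fold change was 3.86, with an edgeR adjusted p of 8.72e-08.

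Cd24a encodes a small glycosylated surface protein found on biliary and progenitor-like cells and on several blood cell types. It lies on chromosome 10 at 43579169-43584265 (ENSMUSG00000047139). The FLO libraries held 1.42, 2.41, 3.94, 2.01, 3.67 and 2.34 CPM and the fibrotic libraries 8.97, 4.58, 4.2, 14.6, 17.8 and 4.25 CPM. The groups did not overlap, although fibrotic replicates 2, 3 and 6 lay just above the highest FLO library and fibrotic replicates 4 and 5 far above it. Its log2 fold change was 1.78 (SE 0.41, 95% interval 0.90 to 2.66), with an edgeR adjusted p of 0.00242, and 1.94 without FLO replicate 3. How reads shared with near-identical copies elsewhere in the genome were counted is not given in the sources used here, so values of Cd24a, Krt8 and Krt18, for which such copies exist, are uncertain in that respect.

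Sox9 encodes a transcription factor of the ductal plate and of biliary cells, which hepatocytes near the portal vein also switch on in injury. It lies on chromosome 11 at 112782210-112787757 (ENSMUSG00000000567). The FLO libraries held 3.28, 3.10, 3.77, 3.13, 3.55 and 4.77 CPM and the fibrotic libraries 6.11, 7.28, 4.64, 16.1, 8.61 and 5.77 CPM. Fibrotic replicate 3 was the one fibrotic library below the highest FLO library, and fibrotic replicate 4 was the highest. Sox9 had a log2 fold change of 1.16 (SE 0.26, 95% interval 0.61 to 1.72), with an edgeR adjusted p of 0.00166, and 1.18 without FLO replicate 3.

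Epcam encodes an epithelial adhesion molecule of bile ducts that mature hepatocytes lack. It lies on chromosome 17 at 87635979-87651127 (ENSMUSG00000045394). The FLO libraries held 1.53, 1.95, 3.21, 1.57, 2.01 and 2.79 CPM and the fibrotic libraries 4.61, 3.11, 2.80, 7.72, 11.4 and 3.85 CPM. The groups overlapped by FLO replicate 3 alone, which lay above fibrotic replicates 2 and 3. The log2 fold change was 1.35 (SE 0.34, 95% interval 0.62 to 2.08), with an edgeR adjusted p of 0.00406, and 1.5 without FLO replicate 3. The call was lost on leaving out fibrotic replicate 4 or FLO replicate 1, 2, 4 or 5, with adjusted p-values of 0.010 to 0.0112, and the log2 fold changes were then 1.24 to 1.33.

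Krt19 and Krt7 encode keratins of the biliary epithelium that normal hepatocytes do not make. Krt19 (chromosome 11, 100140810-100145926, ENSMUSG00000020911) was at 1.80, 1.72, 3.17, 0.979, 2.01 and 2.84 CPM in the FLO and at 5.77, 2.85, 1.51, 9.27, 10.1 and 3.39 CPM in the fibrotic libraries. Fibrotic replicate 3 was below 5 of the 6 FLO libraries, and 4 fibrotic libraries were above all of the FLO group. The log2 fold change was 1.38 (SE 0.42, 95% interval 0.47 to 2.29), with an edgeR adjusted p of 0.0138, so Krt19 was not called. It was called without fibrotic replicate 2 (log2 fold change 1.52) or without fibrotic replicate 3 (1.58), and was 1.55 without FLO replicate 3.

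Krt7 (chromosome 15, 101412403-101427806, ENSMUSG00000023039) was at 0.547, 0.632, 2.78, 0.588, 1.24 and 1.37 CPM in the FLO and at 2.42, 1.58, 1.35, 4.16, 5.14 and 1.77 CPM in the fibrotic libraries. FLO replicate 3 was above 4 of the 6 fibrotic libraries, while 5 fibrotic libraries were above all of the other FLO libraries. The log2 fold change was 1.17 (SE 0.44, 95% interval 0.24 to 2.11), with an edgeR adjusted p of 0.0357, so Krt7 was not called. Without FLO replicate 3 it was called, at a log2 fold change of 1.64 and an edgeR adjusted p of 0.00383.

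Cftr encodes the chloride channel of the ductal membrane that drives bicarbonate-rich secretion. It lies on chromosome 6 at 18170687-18322770 (ENSMUSG00000041301) and had only 2 to 27 counts per library, so counting error is large and the fit across all genes does not hold it. The FLO libraries were at 0.219, 0.402, 0.257, 0.147, 0.118 and 0.102 CPM and the fibrotic libraries at 0.776, 0.408, 0.162, 1.26, 1.26 and 0.658 CPM. Fibrotic replicate 3 again lay among the FLO libraries and the other 5 fibrotic libraries lay above them, replicate 2 only just. Mean log2 CPM was 1.34 higher in the fibrotic group, with a two-sided exact permutation p of 0.0130, read at 0.05, and without FLO replicate 3 it was 1.39 with an exact permutation p of 0.0195.

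**Figure D2:**
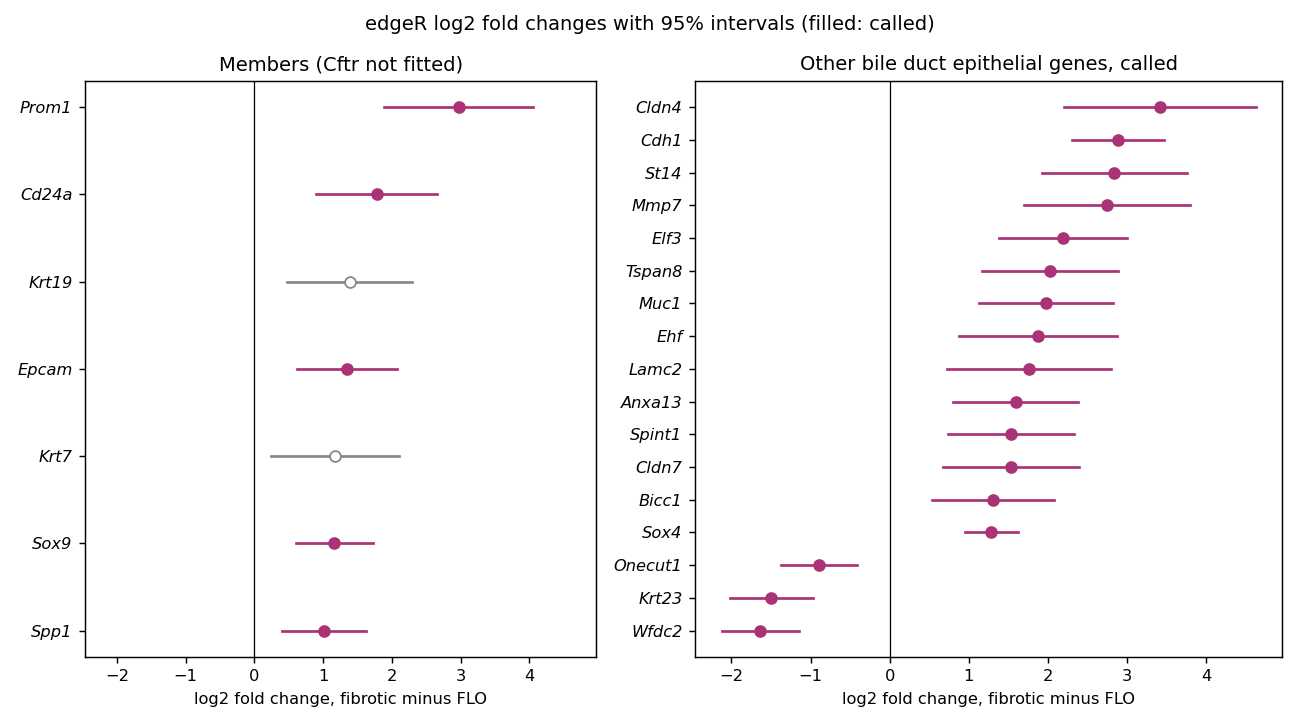
Log2 fold changes of fibrotic minus FLO from edgeR (x axis) for the 7 tested genes, left, and for the called genes among other bile duct epithelial genes, right, with 95% intervals as lines and filled points for called genes. All 7 intervals on the left lie above 0, while on the right 14 genes are higher, some of which passed the low-count filter through the fibrotic group alone, and Wfdc2, Krt23 and Onecut1 lower.

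Compared per length of the longest coding transcript, Spp1 was the most abundant of the 8 genes in both groups, at 40.1 ± 8.89 CPM per kb in FLO and 81.0 ± 42.2 CPM per kb in fibrotic livers (SD, n = 6). Prom1 took place 5 in the order of FLO levels, at 0.921 ± 1.02 CPM per kb, and place 2 in the fibrotic order, at 7.42 ± 2.01 CPM per kb. With all libraries, Sox9, Krt7 and Cftr took places 6, 7 and 8 in both groups, Cftr at 0.0329 ± 0.0178 CPM per kb in FLO and 0.120 ± 0.0708 CPM per kb in fibrotic livers. From Cd24a through Krt19, Epcam and Prom1 to Sox9, neighbours in the FLO order differed by less than the larger SD of the pair, and so did neighbours from Prom1 to Sox9 in the fibrotic order. The FLO level of Prom1 without FLO replicate 3 was 0.511 ± 0.171 CPM per kb (SD, n = 5) and took place 6, below Sox9 at 0.863 ± 0.169 CPM per kb, a gap larger than the SD of either. With all 6 FLO libraries, the gaps from Spp1 to the next gene, from Sox9 to Krt7 and from Krt7 to Cftr were larger than the larger SD of the pair in both groups.

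In terms of summed CPM, the 8 genes reached 51.1 to 95.4 CPM in FLO and 105.0 to 324.1 CPM in fibrotic livers. Spp1 was 69.3 to 83.5% of that sum in FLO and 59.3 to 73.5% in fibrotic livers. The FLO library with the highest sum and the lowest share of Spp1 was replicate 3.

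Whether the 8 genes rose by unequal amounts was tested on the log2 ratio of 2 genes within a library. The scaling of libraries enters that ratio only through the prior count of 2 added to the counts. That prior is not small beside the counts of Cftr. Of 28 pairs, 8 differed between groups by a two-sided exact permutation test with Benjamini-Hochberg adjustment over the 28, read at 0.05. All 7 pairs with Prom1 were among them, Prom1 having risen by 1.82 log2 units more than Cd24a (exact permutation p = 0.00866, adjusted p = 0.0346) and by 2.49 more than Spp1 (p = 0.00433 by the same exact test, adjusted p = 0.0303). The remaining pair was Cd24a and Spp1, Cd24a having risen by 0.67 log2 units more (exact permutation p = 0.0130, adjusted p = 0.0455). The other 20 pairs did not pass. Among those, the ratio of Krt7 to Epcam had a mean of -0.99 log2 units in both groups, with an SD of 0.10 over the fibrotic and 0.49 over the FLO libraries. The number of pairs that passed was 10 without FLO replicate 3, and 4 without any one of the other FLO libraries, all 4 with Prom1. Without any one fibrotic library it was 5 to 7, again all with Prom1. When a single library was left out, the pair of Cd24a and Spp1 therefore passed only without FLO replicate 3.

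**Figure D3:**
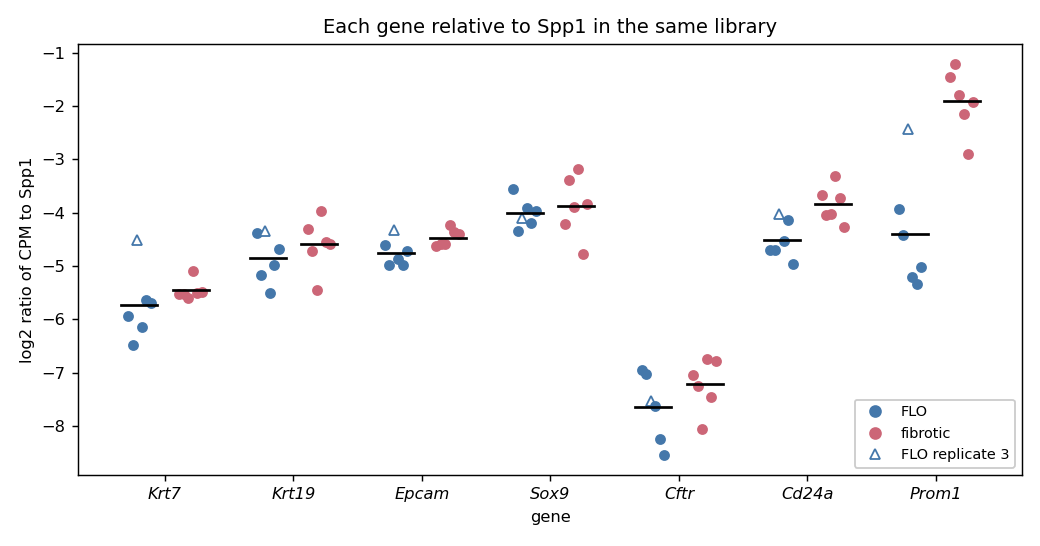
Log2 ratio of the CPM of 7 genes to that of Spp1 in the same library (y axis) for FLO and fibrotic libraries, with a line at each group mean and an open triangle for FLO replicate 3. Prom1 shows the largest shift, by 2.49 log2 units between the group means, and FLO replicate 3 lies within the fibrotic range for Prom1 and above all of the other FLO libraries for Krt7.

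The same fibrotic livers were high or low for most of the 8 genes. Fibrotic replicate 3 had the lowest level of the fibrotic group for 8 of 8 genes. Fibrotic replicates 4 and 5 were each among the highest 2 of their group for 7 of 8 genes, Prom1 being the exception for both. In the FLO group, replicate 3 was among the highest 2 for 7 of 8 genes and replicate 4 among the lowest 2 for 7 of 8. The TMM factor, which corrects for a few genes taking a large share of the counts, ran from 0.965 to 1.2 over fibrotic and from 0.913 to 0.963 over FLO libraries and was highest in fibrotic replicates 4 and 5. Its part in the spread between livers was not tested, but the ratios within a library use it only through the prior count.

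As a description over 12 libraries, the Pearson r of log2 CPM after subtraction of the group means was 0.80 to 0.94 (median 0.88) for the 10 pairs among Krt7, Krt19, Epcam, Spp1 and Cd24a. Within the 6 fibrotic libraries alone those pairs had r of 0.92 to 0.99, and within the 6 FLO libraries 0.51 to 0.93. The 11 pairs of Sox9 or Cftr with each other or with those 5 genes had r of 0.47 to 0.75 (median 0.64), and within the FLO libraries -0.57 to 0.74. The 7 pairs with Prom1 had r of 0.21 to 0.60 (median 0.40). These values share libraries and scaling and carry no test.

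**Figure D4:**
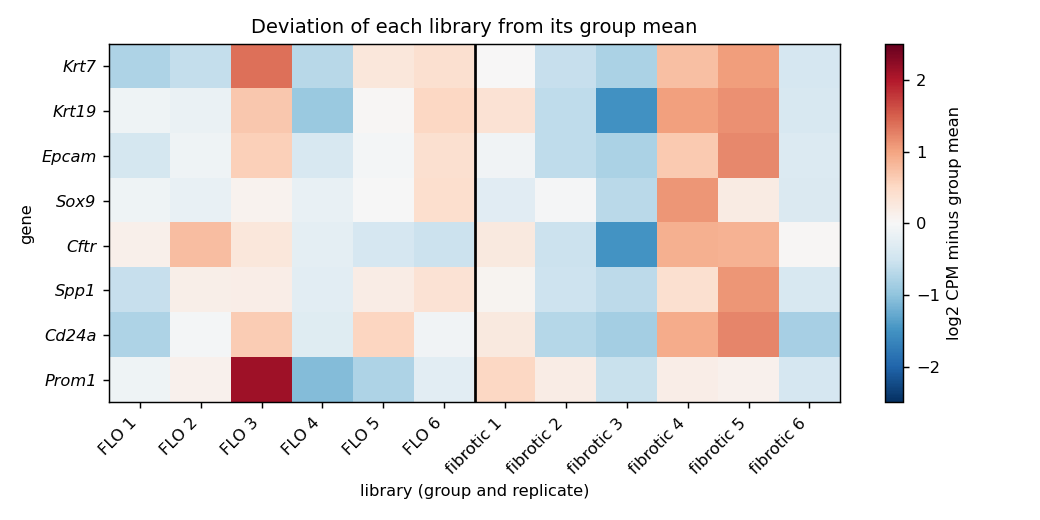
Deviation of each library (x axis) from its group mean in log2 CPM (colour, red above and blue below the mean) for the 8 genes (y axis). Fibrotic replicate 3 is below its group mean for all 8 genes and fibrotic replicates 4 and 5 are above it for all 8, while FLO replicate 3 stands out most for Prom1 and Krt7.

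By the same measure, the genes of the whole table with the most similar deviations over the 12 libraries (11387 genes ranked) were Fkbp10 (r = 0.97), Timp2 (0.97) and Emp1 (0.96) for Epcam. They were Glis2 (0.95), Epcam (0.94) and Timp2 (0.94) for Spp1, and Bicc1 (0.95), Fmnl3 (0.92) and Scara3 (0.92) for Cd24a. For Krt19 they were Scara3 (0.94), Cav1 (0.92) and Epcam (0.92), and for Krt7 they were Fhl1 (0.92), Ppic (0.91) and Epcam (0.91). Genes alike within groups differed in their change between groups. Of these genes outside the list, Bicc1 and Scara3 were called higher, at log2 fold changes of 1.31 and 2.04, while Timp2 was at 0.12 and Fkbp10 at 0.32, not called. Sox9 had Gm7935 (0.95), Tex10 (0.95) and Ctr9 (0.92) nearest, and Prom1 had Ppp1ca, Paip2b and Oxct1, each at an r of 0.85, none of them called.

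Beyond the 8 genes, a list of 28 other bile duct epithelial genes had 23 tested, with a median log2 fold change of 1.54. Of the 23, 14 were called higher, 3 lower and 6 neither, beside 15.9% of all tested genes called higher and 14% lower. Of these 23, 14 had at least 10 counts in every library, and in the fit on such genes 6 were called higher and 3 lower, with a median of 0.76. The other tested genes could pass the filter through the fibrotic group alone. Without FLO replicate 3, 15 of the list were called higher and 3 lower.

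The 3 largest log2 fold changes among called genes of the list were those of Cldn4, Cdh1 and St14. Cldn4, a tight junction claudin, was at 0.288 ± 0.196 CPM in FLO and 3.15 ± 2.5 CPM in fibrotic livers (SD, n = 6 each), and since it passed the low-count filter through the fibrotic group alone, its call is no support. Another claudin, Cldn3, was at a log2 fold change of 0.19 and was not called. Cdh1, which encodes E-cadherin, went from 4.53 ± 1.85 to 33.7 ± 10.1 CPM, with no overlap between groups and an edgeR adjusted p of 1.5e-06. St14, the epithelial surface protease matriptase, went from 1.49 ± 0.440 to 10.8 ± 6.61 CPM, a log2 fold change of 2.84 with an edgeR adjusted p of 8.81e-05. Cdh1 is also made by hepatocytes around the portal tract.

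Other biliary genes fell or did not pass the test. Wfdc2, a secreted protease inhibitor of epithelia, went from 23.1 ± 4.52 to 7.46 ± 3.10 CPM (log2 fold change -1.63, edgeR adjusted p = 3.64e-05). Krt23, a type I keratin, went from 11.4 ± 4.15 to 4.04 ± 1.09 CPM, with no overlap between groups, and Onecut1, a transcription factor of liver and bile duct development, had a log2 fold change of -0.89, a call lost without FLO replicate 4. Pkhd1, which encodes the ciliary protein fibrocystin of bile ducts, was at 0.01 and was not called. The 5 genes of the list that were not tested did not pass the low-count filter.

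Krt8 and Krt18, the keratin pair that hepatocytes and cholangiocytes share, had log2 fold changes of the opposite sign to Krt7 and Krt19. Krt8 was called lower, from 414 ± 91.2 to 259 ± 73.1 CPM (SD, n = 6 each), at a log2 fold change of -0.68 and an edgeR adjusted p of 0.00784, and Krt18 was at -0.47 with an adjusted p of 0.0354, not called. The call of Krt8 was lost on leaving out fibrotic replicate 1, 3, 4 or 6 or any one of the FLO libraries other than replicate 3, and also without the low-count filter and with the replicate block.

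Of 12 genes for bicarbonate and water secretion by ducts, 10 were tested, 1 was called higher (10% of those tested, beside 15.9% of all tested genes) and 0 lower by edgeR, with a median log2 fold change of 0.22. The called gene was Car2, a carbonic anhydrase, which went from 14 ± 2.07 to 49.7 ± 10.2 CPM with no overlap between groups. The partners of Cftr in ductal secretion gave small values: Slc4a2, the chloride-bicarbonate exchanger, had a log2 fold change of 0.34 (edgeR adjusted p = 0.00111, under the fold threshold), and Aqp1, a water channel, had -0.25 and was not called. Slc4a4, a bicarbonate cotransporter, was lower at -0.49 (edgeR adjusted p = 0.0056, under the fold threshold). Without FLO replicate 3, 2 genes of the list were called higher and 1 lower. With RLE or upper quartile scaling, DESeq2 or limma-voom, 1 gene was also called lower. Ano1, another chloride channel, was at 0.91 with an edgeR adjusted p of 0.0102, and the receptors Sctr and Gpbar1 did not pass the filter.

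In the Notch pathway, 3 of 17 tested genes were called higher and 1 lower, with a median log2 fold change of 0.03. The receptor Notch1 was higher at 0.77, the protease Adam10, which cuts Notch receptors, at 0.53, and the fringe glycosyltransferase Rfng at 0.51, and the ligand Dll1 was lower at -1.64. The call of Rfng, close to the fold threshold, was lost with RLE or upper quartile scaling, with DESeq2 and without fibrotic replicate 2 or FLO replicate 3 or 5, and that of Adam10 without fibrotic replicate 4. The biliary ligand Jag1 (0.22) and the target Hes1 (-0.12) were not called. In the Hippo and Yap pathway, 3 of 18 tested genes were called higher and 0 lower, with a median of 0.12. These were Ajuba (1.51), a junctional scaffold that restrains Lats kinases, Lats1 (0.82), one of those kinases, and Axl (0.80), a receptor tyrosine kinase. Ccn1 (-0.03), Ccn2 (0.39) and Ankrd1 (1.04, edgeR adjusted p = 0.0913, 2 to 41 counts per library), also of this list, were not called. Tead3 (-0.49, edgeR adjusted p = 0.00102) and, in the Notch list, Dll4 (-0.45, 0.0045) were under the fold threshold. Without FLO replicate 3, 3 Hippo and Yap genes were called higher and 1 lower, as with DESeq2, RLE or upper quartile scaling. Notch genes without that library had 2 called higher and 1 lower. The shares called higher in both lists, 17.6% and 16.7%, were near the 15.9% of all tested genes.

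Receptors of osteopontin had 3 of 9 genes called higher (33.3%, beside 15.9% of all tested genes) and 0 lower, with a median log2 fold change of 0.41. Cd44 rose by 1.01, Itgb3 by 0.94 and Itga5 by 0.83 log2 units, while Itgb1, the most general integrin beta chain, was at -0.01. Ligands and receptors known to drive the ductular reaction had 0 of 10 tested genes called by edgeR, and limma-voom called 0. By edgeR, 3 were at an unadjusted p under 0.05, 1 higher and 2 lower. The receptor Met was at -0.46 with an edgeR adjusted p of 0.000311, under the fold threshold. Tnfrsf12a, the receptor of TWEAK, was at 0.07 and Tnfsf12, its ligand, at -0.03, and Fgf7, Il6, Lif and Wnt7b did not pass the filter. Without FLO replicate 3 edgeR called 3 of 11 tested genes: Fgfr2, a receptor of fibroblast growth factors, higher at 0.62, Lif, an interleukin-6 family cytokine, higher at 2.60, and Egfr, the receptor of epidermal growth factor, lower at -0.68. Fgfr2 was also called without fibrotic replicate 6. Lif was called in each fit that held it, which were DESeq2, edgeR without the filter and the fits without any one FLO library or without fibrotic replicate 3, so it lies at the edge of the low-count filter, which it passes through the fibrotic group alone. These 3 genes are named after their values were seen.

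**Figure D5:**
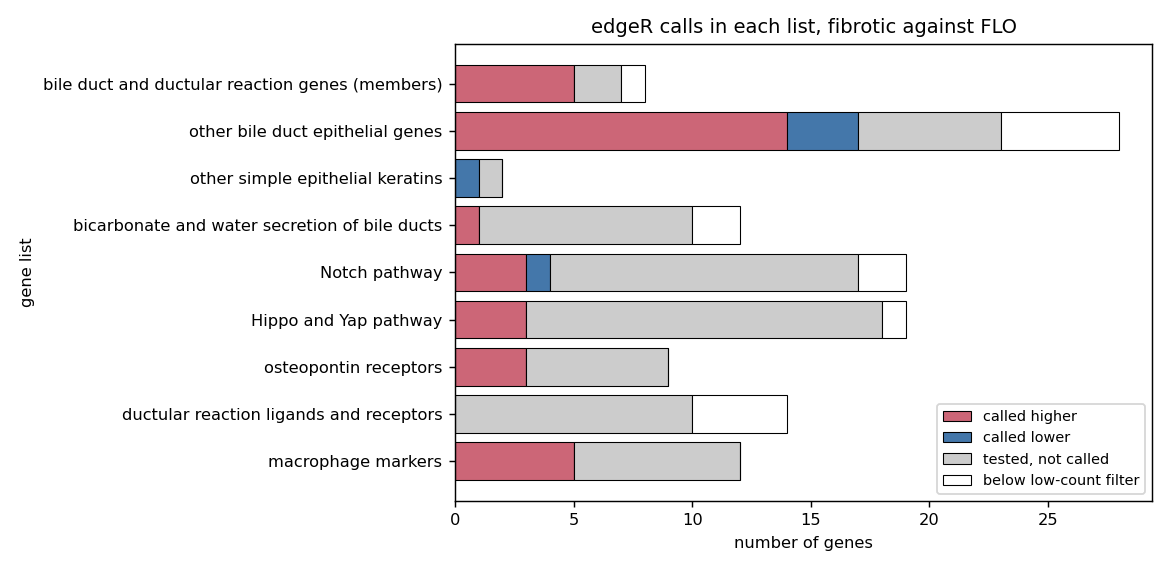
Number of genes (x axis) called higher, called lower, tested but not called and below the low-count filter in 9 gene lists (y axis), by edgeR. The 8 bile duct and ductular reaction genes and the 28 other bile duct epithelial genes have 5 and 14 called higher, while the ductular reaction ligands and receptors have 0 with all 12 libraries.

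Several of the 8 genes are made by other cells of the liver, so markers of these were measured in the same libraries. Of 12 macrophage markers, set beside Spp1, 5 were called higher (41.7%, against 15.9% of all tested genes) and 0 lower. With DESeq2, and without FLO replicate 1, 1 of them was called lower. Their summed level was 182 to 415 CPM in fibrotic and 146 to 222 CPM in FLO livers. Cd14, the lipopolysaccharide co-receptor, had a log2 fold change of 1.72, Cd9 of 0.87 and Adgre1 of 0.81, and 0 of the 12 were without counts. Gpnmb (0.48) and Trem2 (1.01, edgeR adjusted p = 0.0451), which accompany Spp1 in lipid-associated macrophages, were not called. Fabp5 and Mmp12 of the same list had negative log2 fold changes, -0.77 (edgeR adjusted p = 0.0216) and -0.61, and were not called either. The part of macrophages in the rise of Spp1 was not tested.

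Mesothelium, the cell layer on the liver surface, makes Krt7 and Krt19 too. Of its 6 markers, 4 were tested and 0 were called by edgeR, DESeq2 or limma-voom, 2 having an unadjusted edgeR p under 0.05, with a median log2 fold change of -0.59. Their summed level was 2.86 to 6.84 CPM in fibrotic and 4.38 to 13.8 CPM in FLO livers, FLO replicate 3 being the highest at 13.8 CPM. That library was also the FLO library with the most Krt7, Krt19, Epcam, Cd24a and Prom1, and the part of mesothelium in these values was not tested.

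Of the other cell types, the 5 B cell markers, set beside Cd24a, were all below the filter, at summed levels of 0.749 to 1.94 CPM in fibrotic and 0.406 to 2.25 CPM in FLO livers. Of 6 neutrophil markers 1 was tested and was not called. The counts that follow stand beside 15.9% of all tested genes called higher and 14% called lower. Of 5 tested erythroid markers 2 were lower, Klf1 by a log2 fold change of -2.42 and Hbb-bs by -0.51. Stellate cell markers had 1 of 8 higher (Lrat, 0.72) and 1 lower (Acta2), and without FLO replicate 3 neither was called. Endothelial markers had 1 of 5 lower (Kdr, -0.58). The calls of Lrat and Hbb-bs were lost on leaving out 1 library in 8 and 9 of 12 cases, without FLO replicate 3 among them, and that of Lrat also with RLE and upper quartile scaling.

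Of 6 pancreatic acinar markers, Cpa1, Pnlip and Clps were at 0 counts in all 12 libraries and 1 was tested. That gene, Cela2a, an elastase, was at 0.806 to 4.58 CPM in fibrotic and 0 to 0.0428 CPM in FLO livers, and it passed the low-count filter through the fibrotic group alone, so that its call is no support. Hepatocyte markers had 1 of 8 higher (Cps1, 0.73) and 2 lower (Apoa1, -1.68, and Cyp2f2, -0.66), with their sum at 52239 to 87092 CPM in fibrotic and 75761 to 89789 CPM in FLO livers. The call of Cps1 was lost on leaving out 1 library in 8 of 12 cases. Proliferation genes had 1 of 6 higher (Mcm2, 0.79) and 2 lower (Mki67, -1.12, and Ccnb1, which passed the filter through the FLO group alone). Without FLO replicate 3, 1 of the 6 was called higher and 3 lower. Of all tested genes, 15.9% were called higher and 14% lower.

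For the genes whose start sites are in the RefSeq table of promoters (GRCm38.p6), the 250 bases before the start were searched on both strands for letters bound by factors of the biliary programme and of core promoters: TEAD (GGAATG, the partner of Yap), RBPJ (TGGGAA, the partner of Notch), AP-1 (TGANTCA), the TATA box (TATAAA) and the GC box (GGGCGG). 5 of the 8 genes had entries, with 7 windows, and Krt19, Sox9 and Cd24a had none. The windows of Prom1, which had the largest fold change, of Spp1, the most abundant, and of Epcam, the adhesion gene that mature hepatocytes lack, are shown 5′ to 3′ on the strand of the gene, with matches in capitals. Prom1 is at chr5:44101737-44101986 (minus strand), Spp1 at chr5:104434861-104435110 (plus) and Epcam at chr17:87635729-87635978 (plus).
Prom1: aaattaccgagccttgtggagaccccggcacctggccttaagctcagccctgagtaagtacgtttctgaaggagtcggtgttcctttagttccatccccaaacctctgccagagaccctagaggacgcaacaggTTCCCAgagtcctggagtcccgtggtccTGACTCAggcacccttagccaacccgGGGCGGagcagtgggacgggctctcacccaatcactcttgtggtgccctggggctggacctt
Spp1: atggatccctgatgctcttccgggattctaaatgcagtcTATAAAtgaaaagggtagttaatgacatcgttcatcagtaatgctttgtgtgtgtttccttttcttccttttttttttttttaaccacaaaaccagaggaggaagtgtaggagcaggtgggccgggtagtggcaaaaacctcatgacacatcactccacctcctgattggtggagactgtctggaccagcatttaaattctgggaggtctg
Epcam: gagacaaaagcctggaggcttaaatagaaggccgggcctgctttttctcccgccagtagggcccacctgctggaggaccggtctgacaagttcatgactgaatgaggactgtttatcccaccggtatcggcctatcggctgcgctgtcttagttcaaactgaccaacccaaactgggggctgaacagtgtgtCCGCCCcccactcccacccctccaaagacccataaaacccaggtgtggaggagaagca

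The Prom1 window held an RBPJ match on the reverse strand at -116, an AP-1 match at -88 and a GC box at -62, counted from the start annotated for that window. A second annotated start of Prom1 had another AP-1 match. Both Prom1 windows lie inside the span of the gene given above, whose 5′ end is at 44102047. The bases before that end were not searched. The Spp1 window held a TATA match at -211, and that of Epcam a GC box on the reverse strand at -58. Krt7 had 4 GC boxes in its window and Cftr 6. No window held a TEAD match. Over all 32851 windows of this length in the table, 12.6% held the TEAD letters, 21.6% RBPJ, 6.75% AP-1, 12.4% the TATA box and 32.7% the GC box. These matches are descriptions of letters and not of binding.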

How the data were processed

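Poly(A) libraries from whole liver RNA of 12 ob/ob mice, 6 per group, were sequenced, with groups read from the sample titles. The authors deposited 1 table of raw counts per Ensembl gene, not normalized. The submitters' processing notes name bcl2fastq, STAR 2.7.3a and mm10, and the methods name PISCES. The annotation release and the use of strand are not given in the sources used here. Symbols matched 51745 of 56205 identifiers, and identifiers without one held 0.0587% of counts. Gene coordinates are from the RefSeq annotation and transcript lengths from the GENCODE annotation, both of GRCm38.

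Counts were tested in R 4.3.3 with edgeR 4.0.16 (robust quasi-likelihood fit, TMM, filterByExpr, Benjamini-Hochberg over all 13416 tested genes). CPM used TMM-scaled library sizes, and log2 CPM a prior count of 2. Cftr, below the filter, and the log2 ratios were compared by two-sided exact permutation of 6 against 6 libraries, whose smallest p is 0.00216. Every pair of replicates differed by more than sampling noise. The p-values measure the spread between these libraries. Counts of fibrotic against FLO were also simulated with 200 genes changed 2-fold or 4-fold, up or down. With 13290 genes tested, the fit recovered 75.0% of genes changed 2-fold and 99.1% of those changed 4-fold, with 1.14% of calls on unchanged genes. In the data a far larger share of genes, 29.9%, was called, so these rates need not hold there.

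As alternatives, libraries were scaled by upper quartiles, by RLE, or by TMM with the 50 most counted genes set aside. The gene filter was removed or raised to 10 counts in each library, and limma-voom (limma 3.58.1), DESeq2 1.42.0 and the non-robust quasi-likelihood fit replaced the test. A block for replicate number, a prior count of 0.5 and the omission of single libraries were also run. Genes named from the lists were the 3 largest called rises and falls among genes whose mean log2 CPM reached 0, with uncalled defining markers beside the members. Met, Slc4a4, Tead3 and Dll4, which passed the adjusted p but not the fold threshold, are named after their values were seen. Genes of similar pattern were the 3 with the highest r among tested genes whose mean log2 CPM reached 1. The 8 members and the lists were chosen with earlier results of these data known.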

Additional observations from a re-analysis of the deposited data

Results flagged for a closer look

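Prom1 in FLO replicate 3 stood apart from its group. At 12.2 CPM it was the highest of 6 FLO libraries, and its gap to the next library was 0.628 of the range of the group in log2 CPM, just above Dixon's 95% limit for 6 samples. In all, 16 such ratios were examined (8 genes in 2 groups), of which chance alone would put about 0.8 past the limit. This is the library whose Xist and Ddx3y counts went against its label. Without it the log2 fold change of Prom1 was 3.86 instead of 2.97.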

How the results depend on the processing

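No log2 fold change of the 8 genes changed sign under any alternative run. Prom1 and Sox9 were called under every alternative, and Cd24a under all but 1. Calls were lost for Spp1 with upper quartile normalization (0.98) and without the low-count filter (1.01, where Cftr was fitted and called), for Cd24a without the filter (1.78) and for Epcam with limma-voom (1.21), and one was gained for Krt19 with DESeq2 (1.36). With the replicate block, the number of the 8 genes called fell to 3 (Sox9, Cd24a and Prom1), Spp1 being at 0.90, Epcam at 1.22 and Cftr at 1.34 with a sign-flip p of 0.0938 by exact permutation, and 0 of 28 ratio pairs passed (the smallest p of that test is 0.03125). The replicate numbers did not pair the samples: same-numbered libraries had correlations of their deviations from -0.16 to 0.10. DESeq2 called 7 of the 8 genes, all but Krt7, and the alternatives other than leaving out a library called 3566 to 4654 of all genes.

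On leaving out each library in turn, log2 fold changes ranged from 0.91 to 1.64 for Krt7, 1.13 to 1.58 for Krt19, 1.02 to 1.5 for Epcam, 0.85 to 1.29 for Sox9, 1.16 to 1.63 for Cftr, 0.71 to 1.14 for Spp1, 1.48 to 1.94 for Cd24a and 2.78 to 3.86 for Prom1. Between 3 and 6 of the 8 genes were called, 3798 to 4093 of all genes, and 4 to 10 ratio pairs passed. Depth limits Cftr most, with at most 27 counts in a library.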
